A study of Homo sapiens with 6 samples.

Results

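Keratins, desmosomal genes and urothelial differentiation markers were compared between ox-LDL and vehicle in T24 cells. T24 is an established line from a human bladder carcinoma, and ox-LDL is low-density lipoprotein, the main cholesterol carrier of plasma, in oxidized form. Members were all probe sets whose platform gene symbol is a numbered keratin (KRT), a uroplakin symbol beginning UPK1, UPK2 or UPK3, a desmoglein (DSG1 to DSG4), a desmocollin (DSC1 to DSC3), or GATA3, FOXA1, ELF3, GRHL3, TP63 or DSP. This gave 63 probe sets for 63 genes among the 21448 tested, namely 45 keratins, 8 desmosomal genes, 5 uroplakin genes, 1 antisense RNA (UPK1A-AS1) and 4 transcription factors. KRT6A, KRT15, KRT17, KRT20 and TP63, which are common basal or luminal markers, were not analysed here. Both groups were T24 cells kept in 10% serum, starved of it for 12 h and then exposed for 24 h, the control group to vehicle and the other to 20 µg/mL ox-LDL. Total RNA of each group was read on 3 arrays. Separate cultures are not named in the labels, so p-values here cover the spread between arrays alone, which may be technical.

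Keratins are the intermediate filament proteins of epithelial cells. Type I (acidic) and type II (basic) keratins pair to form filaments, and different pairs mark different epithelia: KRT8 with KRT18 in simple epithelia, KRT5 with KRT14 in basal cells, and other pairs in stratified epithelium and hair. Filaments are anchored at desmosomes, where desmogleins and desmocollins of neighbouring cells bind each other and desmoplakin (DSP) ties them to keratin. In bladder tumours, uroplakins, KRT20, GATA3 and FOXA1 are used as markers of luminal differentiation, and KRT5, KRT6A, KRT14 and the squamous cadherin DSG3 as markers of basal and squamous differentiation.

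Values are log2 expression on an RMA scale, so a difference of 1 is a 2-fold change. Array medians ranged from 7.11 to 7.18. Vehicle replicate 3 correlated less well with the rest (0.979 to 0.988 across probe sets) than any other pair of arrays did (at least 0.992). One free-text label field named control and G9a siRNA for the same arrays. Groups followed the titles, treatment and source fields, so naming the difference as one of ox-LDL rests on those fields. A gene is called near background when neither group mean exceeded 5.09, which 95% of the negative control probe sets did not exceed. Of the 63 members, 47 lay above it in at least 1 group and 16 did not. Epithelial and mesenchymal markers were read as a check of the cell line. Of 7 epithelial markers, 5 lay above background in at least 1 group, such as the claudins CLDN7 (7.28 in vehicle and 7.01 with ox-LDL) and CLDN4 (6.31 and 6.01). None of the 7 passed in limma, and 1, CLDN4, had an unadjusted p under 0.05, with a difference of -0.30. The adhesion receptor CDH1 was near background (3.96 ± 0.14 in vehicle and 3.78 ± 0.29 with ox-LDL, SD, n = 3 each), EPCAM lay slightly above it (5.48 ± 0.53 and 5.61 ± 0.09), and all 8 mesenchymal markers, VIM and FN1 among them, lay above it. Of those 8, 3 differences were positive and 5 negative (median -0.05). SPARC, a matrix protein, rose by 0.45 (limma adjusted p = 0.0173), while 7 missed the threshold. Closest to it was the cadherin CDH2, with a difference of 0.43 (limma adjusted p = 0.0516) and groups that did not overlap. The repressor ZEB1 differed by -0.19 (adjusted p = 0.164). The SPARC call did not hold without vehicle replicate 1 or any single ox-LDL array (adjusted p = 0.0555 to 0.0994). Markers of other cell types were read too: 5 of 6 fibroblast, 4 of 5 haematopoietic and 3 of 4 endothelial markers lay above background in at least 1 group, none passed in limma and 1 of each list had an unadjusted p under 0.05. The median differences of these lists were -0.21, -0.12 and -0.20, and their part in the results below was not tested. The haematopoietic marker CD14 read 7.54 in vehicle and 7.19 with ox-LDL, and the endothelial marker VWF 7.27 and 6.97. The haematopoietic marker CD68 read 8.07 and 7.94. The fibroblast marker COL1A2 read 8.71 and 8.39, above KRT16 (8.39 and 8.26) in both groups. Whether T24 cells express these markers was not tested, so a level above background is not taken here to show that a gene is expressed. KRT77, UPK1A, UPK2 and UPK3B, described below, read lower than CD14 and VWF in both groups. So did GATA3, ELF3, GRHL3, KRT1, KRT4, KRT13, KRT14, KRT6C, KRT33A and KRT38, among others.

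The promoters of 3 widely expressed desmosomal genes and of 1 hair keratin are shown because the 3 ox-LDL arrays lay above the 3 vehicle arrays for the former and below them for the latter; none of the 4 passed the test, and they were chosen after their values were seen. Each window runs from 250 bases before to 50 bases after the RefSeq gene start (GRCh38.p14), 5′ to 3′ on the gene's strand. Capitals mark a GC box, the core site of SP1-type factors, or a TATA box, each on either strand and spelled out after the sequences.
DSG2 (chr18:31497927-31498226, plus strand): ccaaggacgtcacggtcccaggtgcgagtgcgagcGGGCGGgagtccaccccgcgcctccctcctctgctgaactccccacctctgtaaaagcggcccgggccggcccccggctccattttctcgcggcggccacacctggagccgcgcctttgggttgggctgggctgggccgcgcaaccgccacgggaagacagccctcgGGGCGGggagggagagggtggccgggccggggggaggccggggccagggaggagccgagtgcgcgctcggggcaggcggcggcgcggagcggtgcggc
DSC2 (chr18:31102372-31102671, minus strand): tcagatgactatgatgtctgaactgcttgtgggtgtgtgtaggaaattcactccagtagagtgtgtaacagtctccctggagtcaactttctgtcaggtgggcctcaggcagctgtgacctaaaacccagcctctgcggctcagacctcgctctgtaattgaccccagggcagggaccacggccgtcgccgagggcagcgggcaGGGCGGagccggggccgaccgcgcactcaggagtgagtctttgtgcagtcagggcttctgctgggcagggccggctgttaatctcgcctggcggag
DSP (chr6:7541421-7541720, plus strand): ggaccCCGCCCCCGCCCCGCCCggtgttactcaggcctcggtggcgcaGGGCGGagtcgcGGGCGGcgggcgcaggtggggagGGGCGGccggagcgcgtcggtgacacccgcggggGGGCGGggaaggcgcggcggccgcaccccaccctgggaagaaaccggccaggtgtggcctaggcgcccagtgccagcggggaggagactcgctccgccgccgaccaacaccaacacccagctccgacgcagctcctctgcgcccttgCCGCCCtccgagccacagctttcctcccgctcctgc
KRT33A (chr17:41350779-41351078, minus strand): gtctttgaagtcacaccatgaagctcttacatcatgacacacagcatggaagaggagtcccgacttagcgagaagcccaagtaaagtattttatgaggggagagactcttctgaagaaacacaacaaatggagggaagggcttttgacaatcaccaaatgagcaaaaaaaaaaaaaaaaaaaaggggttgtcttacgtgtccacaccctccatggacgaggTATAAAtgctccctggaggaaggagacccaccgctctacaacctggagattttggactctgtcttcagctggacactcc
The table of RefSeq promoters held 45 of the 63 members. The GC box occurred once in DSC2, 2 times in DSG2 and 8 times in DSP, where 2 of the matches overlap by their end base, and KRT33A had 1 TATA box that began 29 bases before the gene start. The TATA box letters TATAAA were found in 20 of the 45 member promoters (44.4%), 18 of them of keratins, against 11.5% of 35116 windows of the same length. The GC box letters GGGCGG were found in 13 (28.9%) against 45.0%. The AP-1 letters TGANTCA were found in 0 of the 45 windows against 7.71% of all windows. These matches describe letters in the windows, and no binding was measured.

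With ox-LDL, KRT80 rose and KRT77 fell, and the other 61 members did not pass (called at 0.05 on the limma p, Benjamini-Hochberg adjusted across 21448 probe sets). The 2 calls are 3.17% of the members, against 6.77% of all probe sets (3.48% higher and 3.29% lower). None of the 63 met the selection stated in the study's design text, an unadjusted p of 0.001 or less together with a 1.5-fold change or more, which took 2.31% of all probe sets. At an unadjusted p under 0.05 there were 14 members (22.2%), 8 higher and 6 lower, against 26.1% of all probe sets. The 95% confidence interval of the difference lay within a 1.5-fold change in either direction for 55 of the 63 members (87.3%), against 73.6% of all probe sets. Members' log2 differences ran from -0.35 to 0.44, with a median of -0.05, against -0.03 over all probe sets. Quantile normalizing the values once more gave a members' median of 0.0093, cyclic loess 0.02, and omission of vehicle replicate 3 -0.0057. The 2 groups of arrays did not overlap for 21 members (33.3%), against 36.8% of all probe sets.

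**Figure D1:**
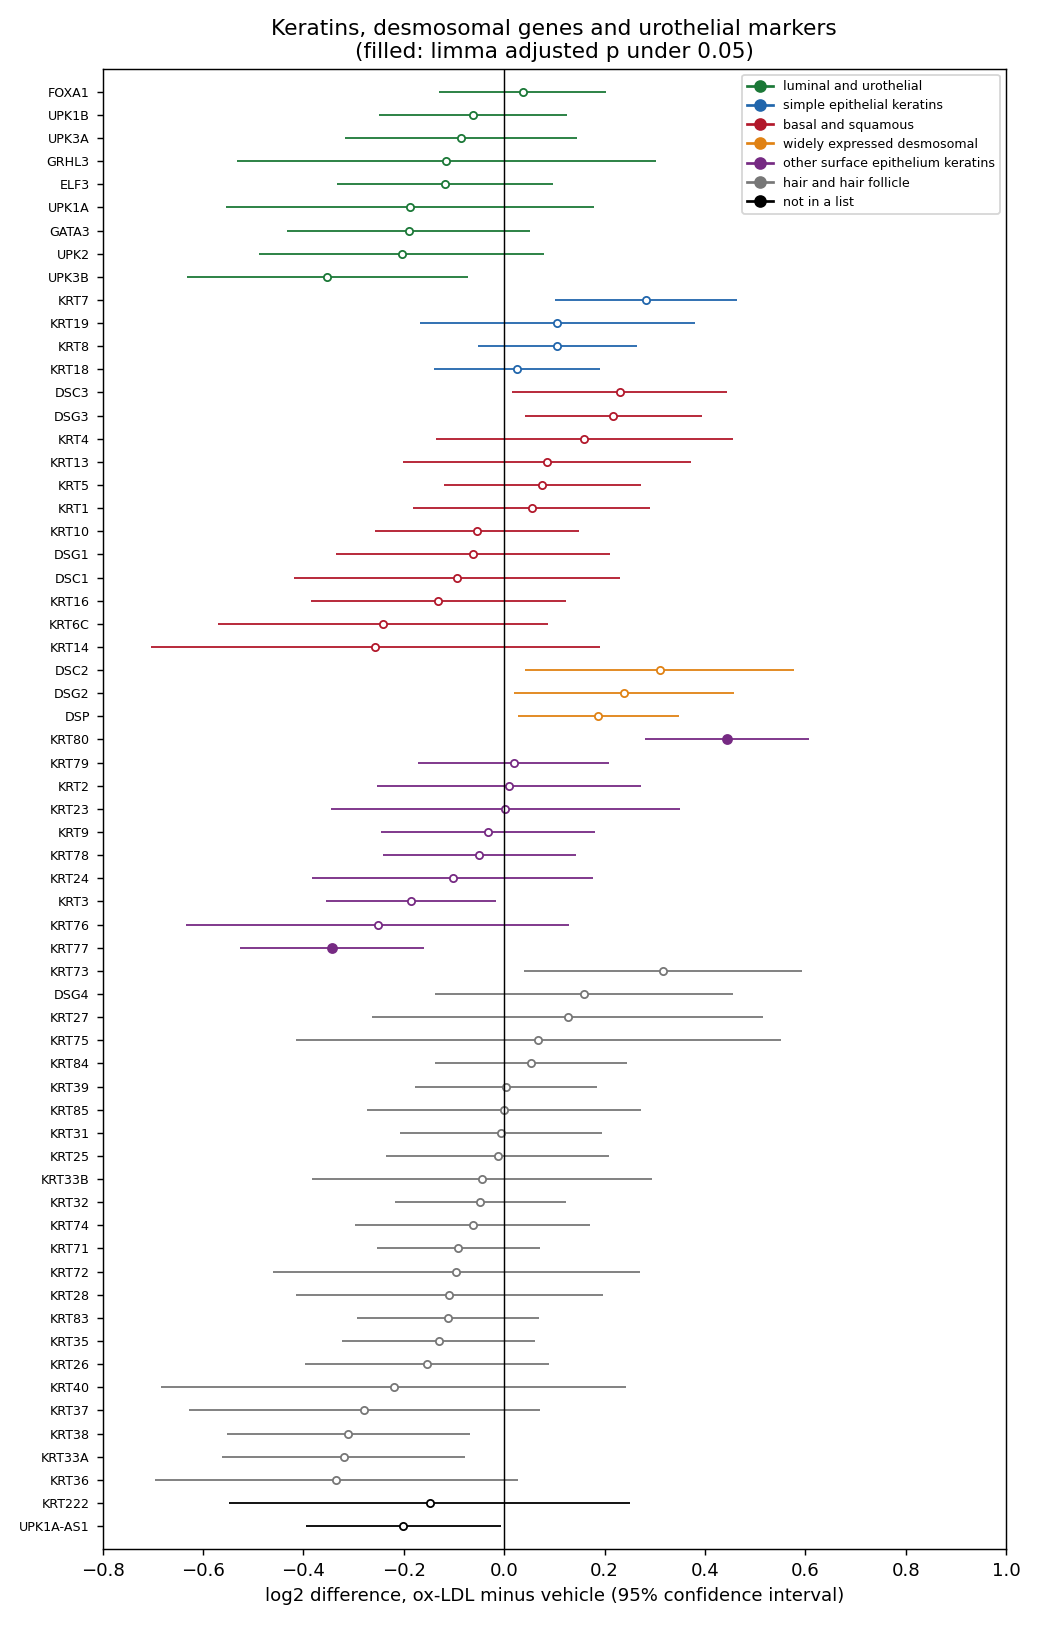
Log2 difference, ox-LDL minus vehicle, of the 63 members (x axis, limma estimate with its 95% confidence interval, n = 3 arrays per group), one gene per line and coloured by list. The filled points are KRT80 at 0.44 and KRT77 at -0.34, the 2 members that passed at an adjusted p under 0.05.

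KRT80, a type II keratin of many epithelia that was placed among the other surface epithelium keratins, had log2 values of 8.82, 8.86 and 8.77 in vehicle and 9.24, 9.24 and 9.30 with ox-LDL. All ox-LDL arrays lay above all vehicle arrays. Its mean went from 8.82 ± 0.04 to 9.26 ± 0.04 (SD, n = 3 each). KRT80 thus rose 1.36-fold, by 0.44 with an SE of 0.07 (limma adjusted p = 0.0145). The rise was 0.42 without vehicle replicate 3 (adjusted p = 0.0112). Leaving out any single ox-LDL array ended the call (limma adjusted p = 0.0787, 0.0835 and 0.0887) with differences of 0.42 to 0.45.

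KRT77, a type II keratin of skin and sweat gland, had values of 6.50, 6.40 and 6.55 in vehicle and 6.07, 6.16 and 6.19 with ox-LDL, and the groups did not overlap. The KRT77 mean fell by 0.34 from 6.48 ± 0.07 to 6.14 ± 0.07 (SD, n = 3 each; SE 0.08, limma adjusted p = 0.0485). This call did not hold with equal array medians (limma adjusted p = 0.0561), repeated quantile normalization (0.0716) or cyclic loess (0.113). Nor did it hold when any array but vehicle replicate 3 was left out (0.0766 to 0.189). Of the other 8 surface epithelium keratins, KRT3, a corneal keratin near background, had a difference of -0.18 (adjusted p = 0.164). The list as a whole had 10 genes, 1 called higher and 1 lower, against 3.48% and 3.29% of all probe sets. Its median difference was -0.04, which was 0.04 with repeated quantile normalization and 0.07 with cyclic loess.

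The simple epithelial keratins, which line single-layered and luminal epithelium, were all above background. KRT7 had values of 11.89, 11.97 and 12.05 in vehicle and 12.30, 12.21 and 12.25 with ox-LDL, so that its groups did not overlap. The KRT7 difference was 0.28 (interval 0.10 to 0.46), short of the threshold (limma adjusted p = 0.0767). It passed without vehicle replicate 3 (0.32, adjusted p = 0.0290). KRT8 went from 12.05, 12.12 and 12.12 to 12.20, 12.21 and 12.19, again without overlap, a difference of 0.11 (interval -0.05 to 0.26, adjusted p = 0.346). KRT18, the partner of KRT8, had 11.84, 11.86 and 11.96 in vehicle and 11.92, 11.91 and 11.91 with ox-LDL. The ox-LDL values of KRT18 lay inside the vehicle range, and the interval of its difference, -0.14 to 0.19, included 0; cyclic loess turned its sign. KRT19, the smallest type I keratin, had a difference of 0.11 (interval -0.17 to 0.38, adjusted p = 0.574). Of the 4 genes 0 passed, and 1 had an unadjusted p under 0.05, against 26.1% of all probe sets.

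**Figure D2:**
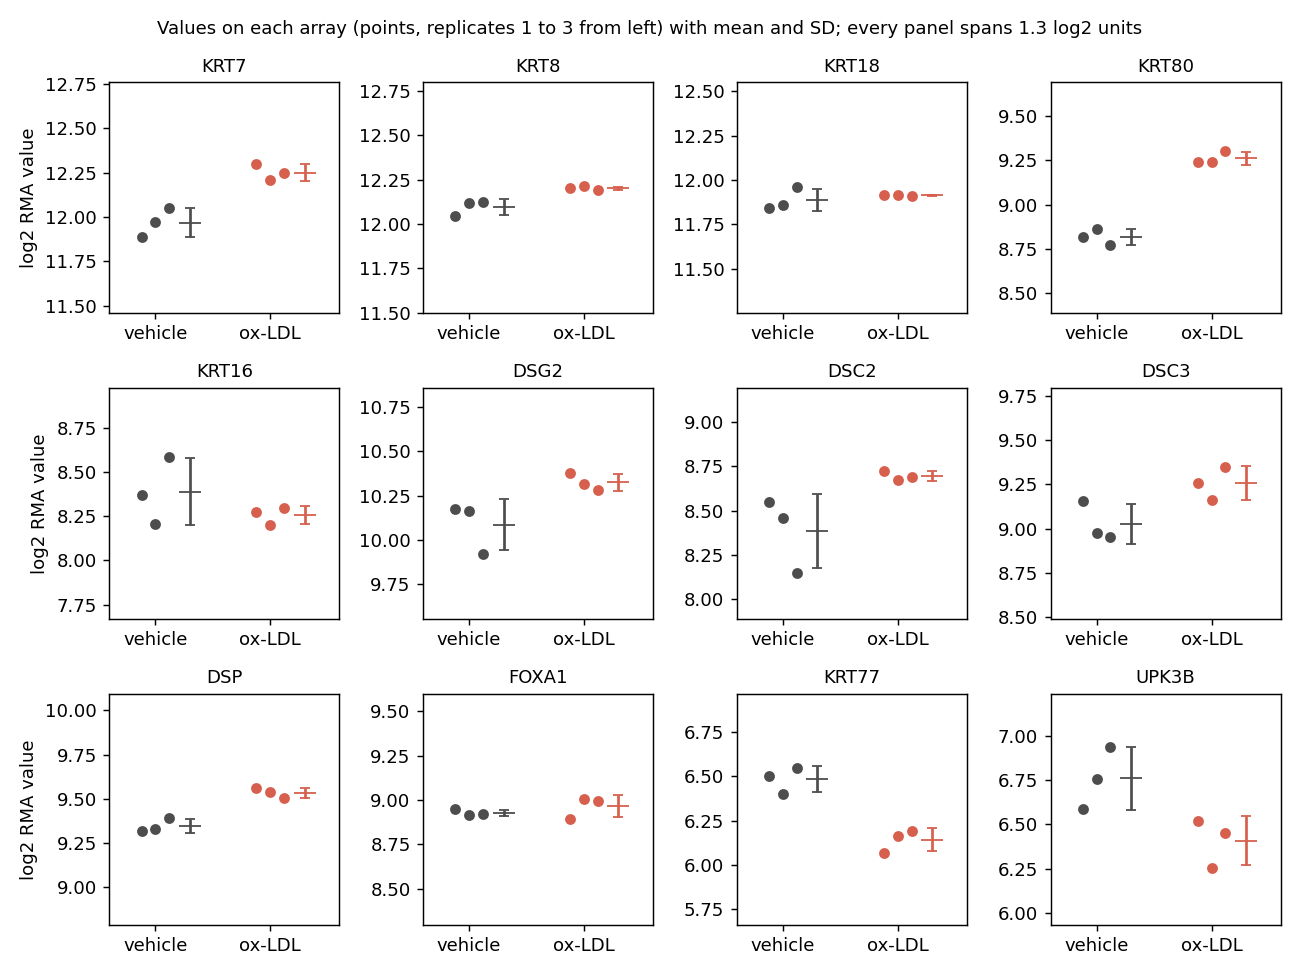
Log2 RMA value (y axis, each panel spanning 1.3 log2 units) on the 3 vehicle and 3 ox-LDL arrays for the 10 members with a mean over 8 and for KRT77 and UPK3B; points are arrays, and bars give the mean and SD. The groups are apart for KRT80 (8.77 to 8.86 against 9.24 to 9.30) and overlap for KRT18, KRT16 and FOXA1.

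Luminal and urothelial genes were measured in 9 members, and none passed in limma or, after the same adjustment, with an unmoderated t statistic. In limma, 1 of the 9 had an unadjusted p under 0.05, against 26.1% of all probe sets. FOXA1, a pioneer transcription factor of urothelium, had 8.95, 8.92 and 8.92 in vehicle and 8.90, 9.01 and 9.00 with ox-LDL, with overlapping groups and an interval of -0.13 to 0.20. GATA3, a zinc finger factor of luminal cells, had 7.23, 6.94 and 7.25 against 6.96, 6.98 and 6.91. Its difference of -0.19 (interval -0.43 to 0.05, adjusted p = 0.280) rested on vehicle arrays 1 and 3, since the second lay among the ox-LDL arrays. ELF3, an epithelial ETS factor, and GRHL3, a grainyhead factor of umbrella cells, both had a difference of -0.12 (adjusted p = 0.432 and 0.693).

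Uroplakins are the membrane proteins that form the plaques of the bladder surface. UPK1B and UPK3A were near background in both groups, and UPK1A, UPK2 and UPK3B lay above it. UPK3B had 6.58, 6.76 and 6.94 in vehicle and 6.52, 6.25 and 6.45 with ox-LDL, without overlap. Its difference of -0.35 (interval -0.63 to -0.07), the lowest among the 63 members, missed the threshold (limma adjusted p = 0.124). UPK2 had 6.49, 6.48 and 6.87 against 6.33, 6.43 and 6.46, a difference of -0.20 (adjusted p = 0.314). The UPK2 groups were apart only narrowly, with 6.48 as the lowest vehicle value and 6.46 as the highest ox-LDL value. UPK1A differed by -0.19 (adjusted p = 0.459), and its antisense transcript UPK1A-AS1 by -0.20 (SE 0.08, adjusted p = 0.180). Whether the probes for this pair keep the strands apart is not stated in the sources.

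Taking the 9 luminal genes together, the median difference was -0.12, and 8 of 9 were negative, against 11818 of all 21448 probe sets. This count depends on which genes were listed. PPARG, another urothelial marker, was placed among the other regulators and differed by 0.18 (limma adjusted p = 0.347). The differences of the 4 simple epithelial keratins were all positive. The mean level of the list was 6.25, 6.19 and 6.42 in vehicle and 6.17, 6.14 and 6.13 with ox-LDL. The third vehicle array was the highest of all 6 for 6 of these 9 genes (66.7%), against 47.6% of the 63 members and 36.4% of all probe sets. With 1 array left out, the median of the list ran from -0.20 (without vehicle replicate 2) to -0.08 (without vehicle replicate 3). It was -0.06 with repeated quantile normalization and -0.04 with cyclic loess.

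Basal and squamous genes were measured in 12 members, and none passed in limma or, after the same adjustment, with an unmoderated t statistic. In limma, 2 of the 12 had an unadjusted p under 0.05, against 26.1% of all probe sets. KRT5, the type II keratin of basal cells, had 6.94, 6.93 and 6.91 in vehicle and 7.14, 6.94 and 6.92 with ox-LDL. Its groups overlapped, and the interval of the difference was -0.12 to 0.27. KRT14, the partner of KRT5, had 5.08, 5.35 and 5.62 against 4.75, 5.25 and 5.28, with the widest interval of the list (-0.70 to 0.19). KRT16, a keratin of activated and squamous epithelium, had 8.37, 8.21 and 8.59 against 8.27, 8.20 and 8.29 and a difference of -0.13 (adjusted p = 0.457). KRT6C had a difference of -0.24 (adjusted p = 0.307). Its value is uncertain, because its sequence is nearly identical to that of KRT6A and KRT6B. Mucosal KRT4 and KRT13 differed by 0.16 and 0.08, and epidermal KRT1 and KRT10 by 0.05 and -0.05, with KRT10 near background.

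The 12 genes had a median difference of 0.00, and 6 were positive and 6 negative. Their mean level was 5.75, 5.68 and 5.92 in vehicle and 5.82, 5.74 and 5.78 with ox-LDL, which overlapped. With 1 array left out, the median ran from -0.06 (without vehicle replicate 2, 5 positive and 7 negative) to 0.06 (without vehicle replicate 3, 8 positive and 4 negative), and it was also negative without vehicle replicate 1 (-0.03) or ox-LDL replicate 1 (-0.05). The difference between the luminal and the basal list was not tested.

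Among the 8 desmosomal genes, 4 of which are also in the basal and squamous list and 1 in the hair list, 0 passed in limma, with 5 at an unadjusted p under 0.05 (against 26.1% of all probe sets) and 1 (DSP) passing with an unmoderated t statistic. DSG2, the desmoglein of simple epithelia, had 10.17, 10.16 and 9.92 in vehicle and 10.38, 10.31 and 10.28 with ox-LDL. DSC2, the matching desmocollin, had 8.55, 8.46 and 8.15 against 8.73, 8.67 and 8.69. DSP had 9.32, 9.33 and 9.39 against 9.56, 9.54 and 9.50. In all of these, the lowest ox-LDL array lay above the highest vehicle array. The differences were 0.24 for DSG2 (interval 0.02 to 0.46, adjusted p = 0.163), 0.31 for DSC2 (0.04 to 0.58, adjusted p = 0.146) and 0.19 for DSP (0.03 to 0.35, adjusted p = 0.142).

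DSC3, a desmocollin of basal layers, had 9.15, 8.97 and 8.95 against 9.26, 9.16 and 9.35, a difference of 0.23 (adjusted p = 0.170) without overlap. DSG3, its squamous partner, had 4.11, 4.07 and 4.22 against 4.37, 4.32 and 4.37 and was near background in both groups, with a difference of 0.22 (adjusted p = 0.129). DSG1 and DSC1, the cadherins of the upper epidermis, and DSG4, a hair desmoglein, were near background too, with differences of -0.06, -0.09 and 0.16. The groups were apart, with ox-LDL higher, for 5 of the 8 (62.5%). Over all 21448 probe sets, 4097 were apart with ox-LDL higher, and 36.8% in either direction. The third vehicle array was the lowest of all 6 for DSG2, DSC2 and DSC3 (37.5% of the 8, against 28.3% of all probe sets). Without it, DSC2 differed by 0.19 and DSG2 by 0.16 (adjusted p = 0.0972 and 0.144), while DSG3 passed at 0.26 (adjusted p = 0.0377).

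Hair and hair follicle genes, which build the hair shaft and its inner root sheath, made up 23 members. None passed in limma or, after the same adjustment, with an unmoderated t statistic. In limma, 3 of the 23 had an unadjusted p under 0.05, against 26.1% of all probe sets. Near background were 7 of them. KRT33A had 6.54, 6.42 and 6.69 in vehicle and 6.36, 6.19 and 6.13 with ox-LDL, and KRT38 had 6.49, 6.34 and 6.61 against 6.11, 6.09 and 6.30. The groups of both were apart, with differences of -0.32 and -0.31 (adjusted p = 0.113 and 0.120). KRT73, a root sheath keratin, differed by 0.32 (adjusted p = 0.149). KRT33A is closely similar to KRT33B (difference -0.04), so their probe sets may share signal. The list's median was -0.06, from -0.10 (without vehicle replicate 2) to -0.03 (without ox-LDL replicate 1) with 1 array left out, and 0.01 with repeated quantile normalization and 0.04 with cyclic loess. Of the 2 members in no list, KRT222 differed by -0.15 (adjusted p = 0.590), and UPK1A-AS1 is given above.

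Most type II keratin genes, with KRT18, lie in one cluster on chromosome 12, and the type I genes in another on chromosome 17. In the RefSeq gene table (GRCh38.p14), used here for order alone, KRT80 and KRT7 are adjacent protein-coding genes. They had differences of 0.44 and 0.28. KRT77 lies between KRT1 and KRT76, which had differences of 0.05 and -0.25 (KRT76 adjusted p = 0.350). The next measured keratin on the other side of KRT7, KRT83, had a difference of -0.11 (adjusted p = 0.381). Its value is uncertain, since KRT81 and KRT86 are close copies of it. Of 21 type II keratins, 11 differences were positive (median 0.01), and of 23 type I keratins 6 were positive (median -0.05). With repeated quantile normalization, 11 of 23 and 14 of 21 were positive, and with cyclic loess 11 and 16.

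**Figure D3:**
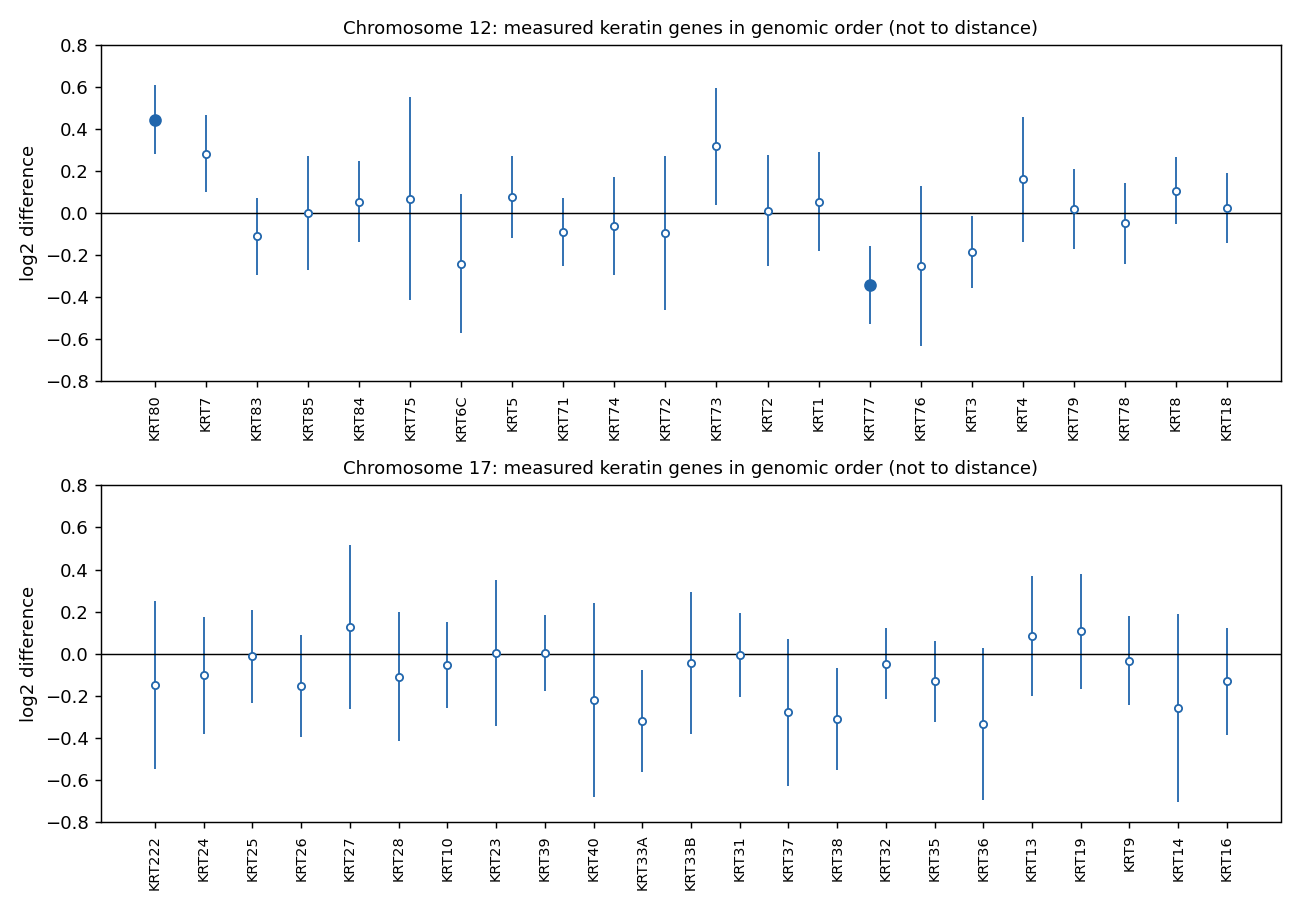
Log2 difference, ox-LDL minus vehicle (y axis, 95% confidence interval), of the measured keratin genes of chromosomes 12 and 17 in genomic order (x axis, rank and not distance). Filled points passed at an adjusted p under 0.05; KRT80 at 0.44 and its neighbour KRT7 at 0.28 stand at the left end of chromosome 12, and most intervals include 0.

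The third vehicle array was the highest of the 6 arrays for 30 of the 63 members (47.6%), against 36.4% of all probe sets, and the lowest for 6 (9.52%), against 28.3%. It lay more than 0.5 above the mean of the other 2 vehicle arrays for GRHL3, KRT76 and KRT37. Without it, the difference of GRHL3 turned from -0.12 to 0.10, that of KRT76 moved from -0.25 to -0.06 and that of KRT37 from -0.28 to -0.11. Of the 39 members with a negative difference, 34 had a higher value without this array, and of the 24 with a positive difference 14 did. These members were split by a difference that includes the array, so the first count is in part fixed by that choice. Members that passed without it were KRT80, KRT7 and DSG3, higher, and KRT77, lower. The part of this array's quality in the negative differences was not tested.

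**Figure D4:**
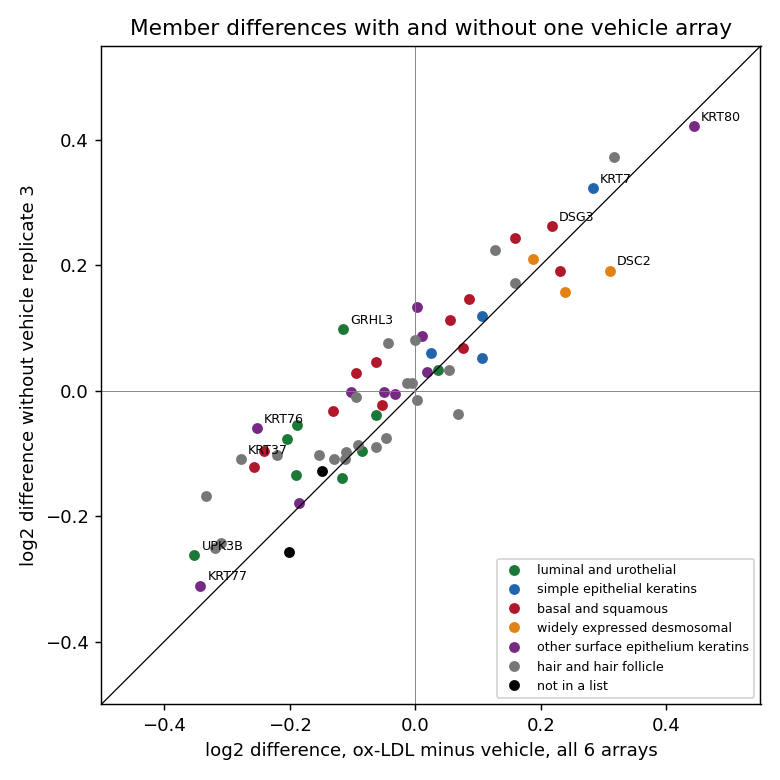
Log2 difference of each of the 63 members over all 6 arrays (x axis) and without vehicle replicate 3 (y axis), with the line of equal values. Points below 0 on the x axis mostly sit above the line (34 of 39), as do 14 of 24 above 0, while KRT80 and KRT77 stay near it.

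Genes that act with keratins and desmosomes were read from 4 lists. Of 10 desmosome plaque proteins and cytolinkers, 2 rose and 8 did not pass (median 0.16), against 3.48% of all probe sets called higher and 6.77% in either direction. PLEC, which encodes plectin, the linker of intermediate filaments to other structures, had 9.62, 9.68 and 9.66 in vehicle and 10.12, 10.18 and 10.05 with ox-LDL, a rise of 0.46 (SE 0.07, adjusted p = 0.0141). PKP4, a plakophilin-related junction protein, rose by 0.56 (SE 0.10, adjusted p = 0.0201), and PKP2, the plakophilin that binds desmoplakin, differed by 0.28 (adjusted p = 0.0632). Neither call held when an ox-LDL array was left out, nor that of PKP4 without vehicle replicate 2 (adjusted p = 0.0511). PKP2 passed without vehicle replicate 3. Of the 10 differences, 7 were positive and 3 negative. Among the negative were those of the plaque genes JUP (-0.21) and PKP3 (-0.23), with limma adjusted p = 0.332 and 0.414.

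Of 14 cornified envelope and terminal differentiation genes, 0 passed in limma or with an unmoderated t statistic, and 7 were near background. An unadjusted limma p under 0.05 was found for 0 of them, against 26.1% of all probe sets. The median was -0.19, and -0.10 without vehicle replicate 3. The 3 with the smallest p, FLG, SPRR2D and CNFN, differed by -0.20, -0.22 and -0.28. Of 14 other urothelial and epithelial regulators, 1 was called, lower, against 3.29% of all probe sets called lower and 6.77% in either direction. At an unadjusted p under 0.05 in limma there were 5, against 26.1% of all probe sets. TBX3, a T-box repressor, fell by 0.42 (SE 0.09, adjusted p = 0.0463). The other 13 missed the threshold, among them OVOL1 with the lowest difference of the list (-0.45, limma adjusted p = 0.156). The TBX3 call was lost with equal array medians (adjusted p = 0.0644) and without any 1 array other than vehicle replicate 3. TBX2 and KLF5, a Krüppel-like factor of epithelial growth, differed by -0.37 and -0.33 (adjusted p = 0.0556 and 0.0600), and both passed without vehicle replicate 3.

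Of 12 other intermediate filament genes, 1 was called, higher, against 3.48% of all probe sets called higher and 6.77% in either direction. LMNB1, which encodes the nuclear lamin B1, rose by 0.52 (SE 0.10, adjusted p = 0.0280). The other 11 missed the threshold. The LMNB1 call did not hold when an ox-LDL array or vehicle replicate 2 was left out. GFAP and SYNM, which encode the glial filament protein and synemin, differed by -0.46 and 0.22 (adjusted p = 0.142 and 0.143). VIM, the mesenchymal filament protein vimentin, had 12.72, 12.75 and 12.76 in vehicle and 12.72, 12.63 and 12.66 with ox-LDL, which overlapped, with a difference of -0.07 (adjusted p = 0.502).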

How the data were processed

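Total RNA of 6 T24 samples was read on single-colour arrays. The deposited values are log2 expression from RMA, per the submitters' processing notes, with no version, settings or build stated in the sources. The range of the values shows the log2 scale. RMA equalises arrays, so a change of total RNA cannot be seen, and changes of dim genes are understated. Of 24350 probe sets, 2902 controls were left out; 17709 of the other 21448 have 1 gene symbol in a platform annotation table. All 6 arrays entered one limma fit (lmFit and eBayes, limma 3.58.1, R 4.3.3) of ox-LDL minus vehicle, two-sided, Benjamini-Hochberg adjusted over 21448 probe sets; figures used matplotlib 3.10.9. The members and lists were chosen with earlier results of these data known. Members named were those called, above the negative controls or defining markers; of these the called and the brightest (mean log2 value over 8) are given on each array, and each related list names the 3 genes with the smallest p. Other members given in full, such as those with an unadjusted p under 0.05, were chosen after their values were seen. So were the single markers of cell type and KRT33B, KRT83, KRT222, DSG4, PPARG, OVOL1, JUP and PKP3. On simulated data of 21448 probe sets, 39 of 100 changes of 1.5-fold and 75 of 100 of 2-fold were recovered, with 1 false call. The simulated noise was independent between probe sets and arrays, without an array that deviates as a whole, as vehicle replicate 3 does. These counts therefore do not give the rate of false calls in the real arrays. Samples with the same replicate number did not deviate together (correlations -0.01, 0.03 and 0.02). Alternatives were other normalizations, a filter, variance models, array weights, a replicate block, thresholds and leaving out each array. The number of arrays limits the precision.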

Additional observations from a re-analysis of the deposited data

How the results depend on the processing

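Members called numbered 2, with 1 under equal array medians or repeated quantile normalization, 6 with array weights, and 0 with the replicate number as a block (550 calls over all probe sets), at an adjusted p under 0.01 or by the design text's selection. Leaving out 1 array gave 0 to 4 members called. No luminal member passed under any alternative run (leave-one-out range 0 to 0), and among basal and squamous members 1 (DSG3) did after cyclic loess or with array weights, with 0 to 1 when leaving out 1 array. Calls over all probe sets, 1451, were 2649 with an intensity trend and robust fit, 3962 with array weights, 382 and 2837 at adjusted p under 0.01 and 0.10, 496 by the design text's selection, and 305 (without ox-LDL replicate 2) to 2670 (without vehicle replicate 3) with 1 array left out. Related genes called, 4, were 7 among probe sets above the negative controls, 9 with an intensity trend, 8 with array weights, 2 with an unmoderated t statistic, 7 at an adjusted p under 0.10, and 0 with the replicate block, at 0.01 or by the design text's selection, with 0 to 7 when leaving out 1 array. The cause was not tested. The labels do not say whether a replicate number marks a shared culture or day, and this was not tested. Same-numbered arrays did not deviate together, and the block leaves fewer degrees of freedom. KRT80 kept its direction under all 14 alternatives and its call in 10, KRT77 its direction in 14 and its call in 3. CDH2, CD14, VWF, CD68, COL1A2, PPARG, OVOL1, JUP and PKP3 were not followed under the alternatives and are left out of the next count. Of 61 named genes, 14 turned sign under some alternative, and none of these had been called: FN1 (0.00086) with equal array medians, FOXA1 (-0.020), UPK1B (0.0093) and KRT33B (0.018) with repeated quantile normalization, FOXA1 (-0.022), KRT10 (0.00045), KRT18 (-0.015), UPK1B (0.017) and KRT33B (0.053) with cyclic loess, and DSC1 (0.087), DSG1 (0.026), GRHL3 (0.054) and KRT33B (0.065) with array weights. With 1 array left out, differences ran from -0.24 to 0.028 for DSC1, -0.12 to 0.045 for DSG1, -0.24 to 0.098 for GRHL3, -0.025 to 0.11 for KRT1, -0.047 to 0.16 for KRT13, -0.16 to 0.0019 for UPK3A, -0.16 to 0.076 for KRT33B, -0.32 to 0.0014 for KRT222 and -0.11 to 0.41 for EPCAM. For genes near background, signal over background limits what a difference can show.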
